A study of Mus musculus with 2 samples.

Results

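The 38 genes described here encode the signalling chains of the T cell receptor, its CD4 and CD8 coreceptors, T cell surface receptors, and the kinases, adaptors, effectors and inhibitors that act next to the receptor. They were taken by name, and all 38 names matched 1 gene each by Entrez identifier among the 27179 genes of the count table. All 38 reached 1 CPM, a count scaled for library size, in either library, the level from which a gene was treated as measured, as did 12125 genes in all. RNA was sequenced from ALL211, a T-cell acute lymphoblastic leukemia (T-ALL) of the mouse that carries Vav-tTA and TRE-GFP-shIkaros. In such cells the Vav promoter, active in blood cells, drives a tetracycline-controlled activator, which switches on GFP and a hairpin RNA against Ikaros, a lymphoid transcription factor. Doxycycline (Dox) silences both. Cells sorted from the spleens of leukemic recipient mice gave 1 library from mice on Dox for 3 days, sorted as GFPmid cells, and 1 library from untreated mice, sorted as GFPhigh cells. Both libraries thus came from the same transgenic leukemia. The series design names 2 mice per condition. The sources used here do not say whether their RNA was pooled.

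A T cell receptor binds antigen through its variable chains but signals through the CD3 and zeta chains, whose tails are phosphorylated by Lck, a kinase brought in by CD4 or CD8. Zap70 then docks on these tails and phosphorylates the adaptors LAT and SLP-76, which assemble phospholipase C gamma, Vav1 and Gads. The products of the phospholipase open the calcium and NFAT branch and the diacylglycerol branch, where Rasgrp1 activates Ras and protein kinase C theta leads to NF-kB through Bcl10 and Malt1. Phosphatases, ubiquitin ligases and diacylglycerol kinases hold the cascade back. Many T-ALLs resemble thymocytes, in which the same machinery reads out the quality of the receptor.

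The Dox library held 16484613 counts and the untreated library 16960042. Ikzf1, the gene that encodes Ikaros, stood at 1229 CPM in the Dox library and at 120.5 CPM in the untreated library, the direction that the labels give. The T cell markers were present: all 15 reached 1 CPM in both libraries, with a summed level of 16249 CPM in the Dox library and 12976 CPM in the untreated library. Most markers of other cells were also higher in the Dox library. Macrophage markers summed to 359 CPM in the Dox library, where 13 of 16 reached 1 CPM, and to 74.7 CPM in the untreated library, where 6 did. Itgam alone stood at 181 CPM in the Dox library and 60.6 CPM in the untreated library. Without it the list summed to 178 CPM in the Dox library and 14.1 CPM in the untreated library. Cd14 and Mertk had 0 counts in the untreated library and Marco in both. B cell list genes summed to 514 CPM in the Dox library and 10.3 CPM in the untreated library, nearly all of it from the MHC class II genes Cd74, H2-Aa and H2-Eb1, and the B cell gene Pax5 had 0 counts in both. The dendritic cell list summed to 243 CPM in the Dox library and 405 CPM in the untreated library. Without Ly6d and Bst2, which were abundant in both libraries, it summed to 48.5 CPM in the Dox library and 1.11 CPM in the untreated library, where Clec9a, Siglech, Zbtb46, Batf3 and Cd209a had 0 counts. Erythroid markers summed to 78.4 CPM in the Dox library and 11.01 CPM in the untreated library, natural killer markers to 13.3 and 10.9 CPM in that order, and neutrophil markers to 10.6 CPM in the Dox library and 4.98 CPM in the untreated library. Most of the natural killer sums came from Tbx21, at 7.08 CPM in the Dox library and 10.1 CPM in the untreated library. The other genes of that list had few counts and were higher in the Dox library, except Gzmb at 0 in both. Klrk1 and Prf1 had 28 and 39 counts in the Dox library and 0 in the untreated library. The part of these cells in the values below was not tested. With 1 library per condition no difference has a replicate check and none was tested. Treatment, sorting gate and mice differed together and cannot be told apart. Intervals are exact Clopper-Pearson 95% intervals of the ratio of counts, which cover counting error only, and reads copied by PCR are not independent molecules.

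Most of these genes were moderately higher in the Dox library. Their summed level was 19983 CPM in the Dox library and 13250.3 CPM in the untreated library, or 1.99% and 1.33% of all counts in the same order. The log2 fold of Dox over untreated was above 0 for 34 of the 38 genes, against 49.3% of all measured genes, and its median was 0.77, against -0.01 over all measured genes. The counting interval lay wholly above no difference for 33 genes, against 38.7% of all measured genes, and wholly below it for 4, against 40.0%. At 2-fold, 8 of 38 (21.1%) were higher, against 13.6% of all measured genes, and 0 were lower, against 13.0%. Among genes with at least 5 CPM, where all 38 also lie, 10.7% were 2-fold higher and 11.6% 2-fold lower. The interval lay wholly beyond 2-fold higher for 5 of 38 (13.2%), against 9.11%, and wholly beyond 2-fold lower for 0, against 8.38%. The share at 2-fold thus stood closer to that of all genes than the share above 0 did. At least 1.5-fold higher were 23 of the 38 genes, against 23.6% of all measured genes, and 15 of these 23 stayed below 2-fold. In sorted bulk RNA, more cells of a kind and more RNA per cell cannot be told apart.

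**Figure D1:**
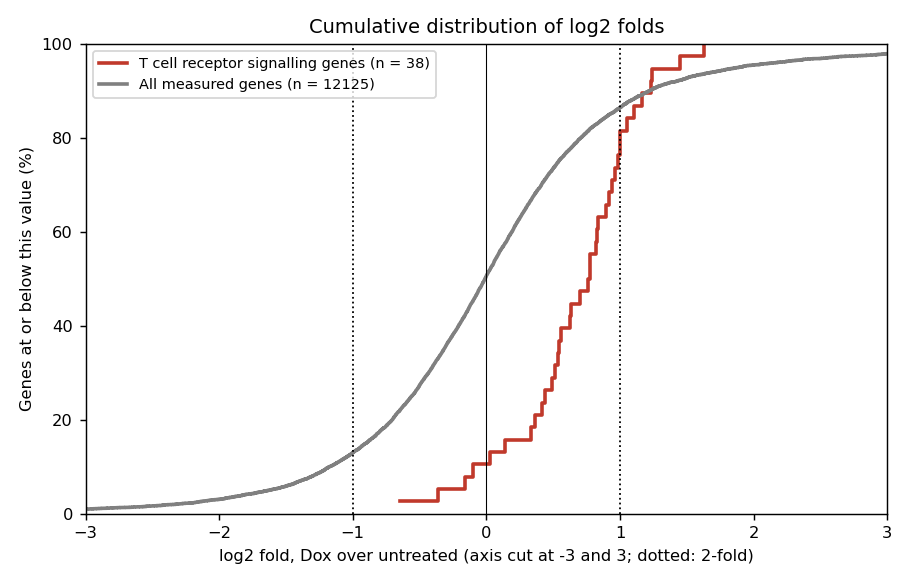
Cumulative share of genes (vertical axis, %) at or below each log2 fold of Dox over untreated (horizontal axis) for the 38 receptor signalling genes and for all 12125 measured genes, 1 library per condition. The line of the 38 genes lies to the right of the other up to about 2-fold, with medians of 0.77 and -0.01, and ends at 1.63, while the line of all genes runs on.

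**Figure D2:**
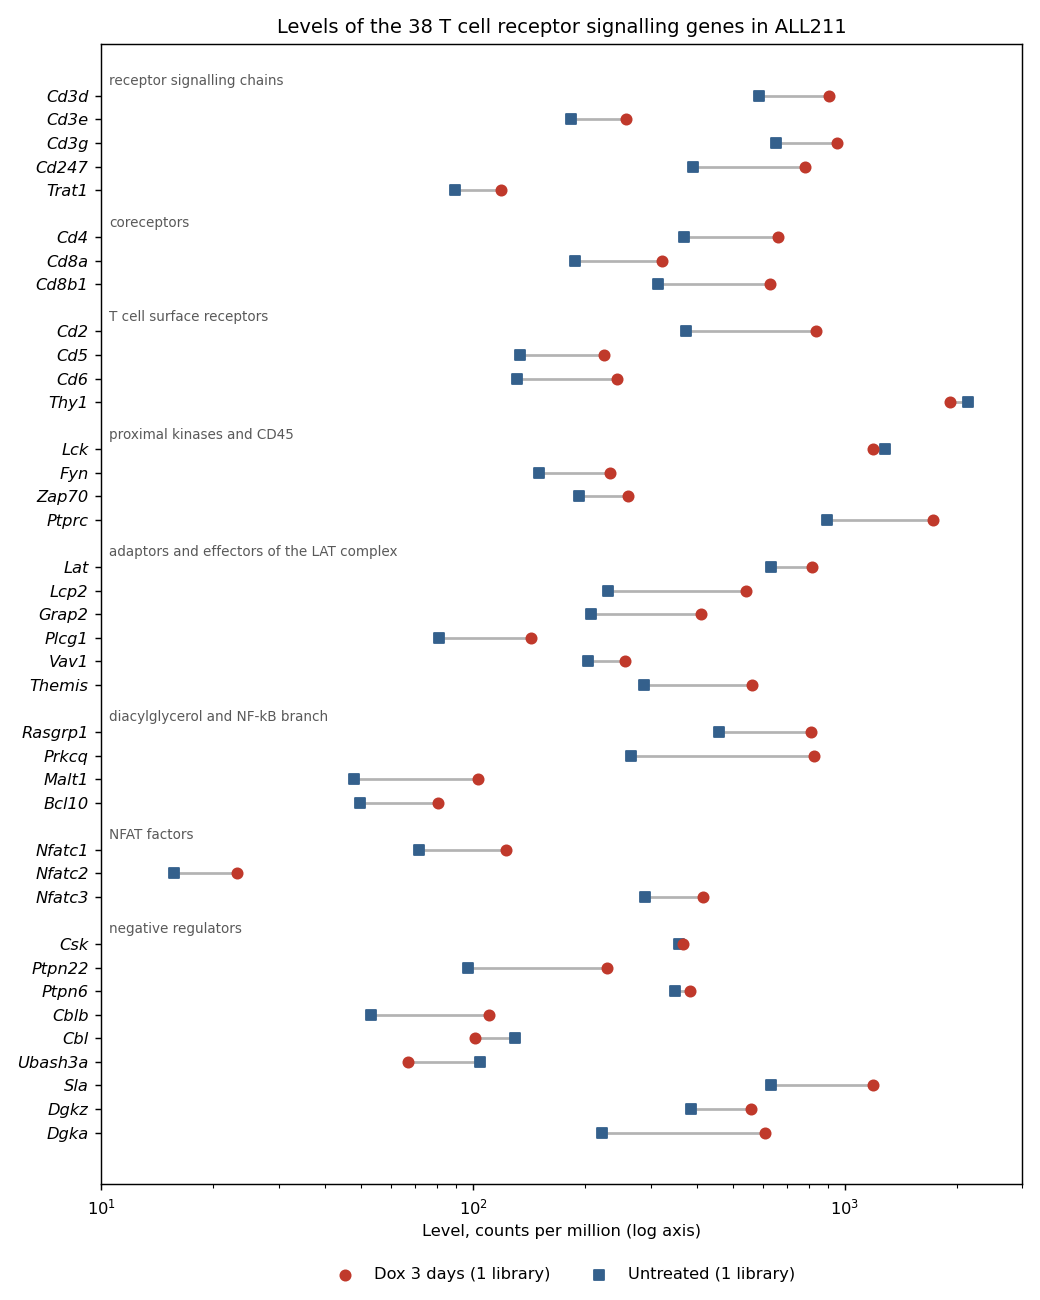
Level of each gene in CPM (log axis) in the Dox library (circles) and in the untreated library (squares), grouped by role. Thy1, Lck, Cbl and Ubash3a have the circle to the left of the square, and in the other 34 rows it lies to the right.

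Promoter windows are shown for genes at both ends of the range of log2 folds. The highest member with a window (Prkcq, log2 fold 1.63), the next (Dgka, 1.45), the adaptor gene Lcp2 (1.23), the lowest member (Ubash3a, -0.65) and the adjacent, divergent pair Cd3g and Cd3d (0.55 and 0.62) were chosen for display after their values were seen. Each window runs from 250 bases before to 50 bases after a start site in RefSeq, build GRCm38, on the strand of the gene. Capitals mark the letters TGGGAA or, on the other strand, TTCCCA, which hold the core that Ikaros proteins are known to bind. The windows are chr2:11172132-11172431 on the plus strand for Prkcq, chr10:128744027-128744326 on the minus strand for Dgka, and chr11:34046678-34046977 on the plus strand for Lcp2. Ubash3a has chr17:31207816-31208115 on the plus strand, Cd3g chr9:44980382-44980681 on the minus strand, and Cd3d chr9:44981536-44981835 on the plus strand.
Prkcq: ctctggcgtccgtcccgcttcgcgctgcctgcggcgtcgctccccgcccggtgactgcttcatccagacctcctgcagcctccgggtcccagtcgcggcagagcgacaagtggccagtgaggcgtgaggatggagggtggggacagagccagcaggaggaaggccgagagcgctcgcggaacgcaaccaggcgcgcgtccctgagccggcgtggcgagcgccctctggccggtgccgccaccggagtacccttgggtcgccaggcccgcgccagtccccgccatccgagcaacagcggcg
Dgka: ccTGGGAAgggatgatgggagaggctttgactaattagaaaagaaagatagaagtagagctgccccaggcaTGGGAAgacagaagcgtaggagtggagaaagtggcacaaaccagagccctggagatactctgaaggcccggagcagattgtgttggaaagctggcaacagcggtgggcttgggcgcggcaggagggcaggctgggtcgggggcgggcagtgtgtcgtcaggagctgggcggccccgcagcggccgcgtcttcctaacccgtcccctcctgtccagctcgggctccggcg
Lcp2: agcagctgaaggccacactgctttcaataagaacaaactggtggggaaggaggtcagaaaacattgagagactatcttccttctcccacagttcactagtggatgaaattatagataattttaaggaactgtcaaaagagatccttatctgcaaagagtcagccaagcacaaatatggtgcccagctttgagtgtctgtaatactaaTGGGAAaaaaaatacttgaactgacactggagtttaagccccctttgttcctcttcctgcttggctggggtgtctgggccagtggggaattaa
Ubash3a: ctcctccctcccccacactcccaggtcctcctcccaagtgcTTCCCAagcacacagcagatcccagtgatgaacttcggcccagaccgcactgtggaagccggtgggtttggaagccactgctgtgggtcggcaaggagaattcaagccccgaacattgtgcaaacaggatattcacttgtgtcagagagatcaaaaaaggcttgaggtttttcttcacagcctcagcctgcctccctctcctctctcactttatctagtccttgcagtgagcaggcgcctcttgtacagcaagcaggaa
Cd3g: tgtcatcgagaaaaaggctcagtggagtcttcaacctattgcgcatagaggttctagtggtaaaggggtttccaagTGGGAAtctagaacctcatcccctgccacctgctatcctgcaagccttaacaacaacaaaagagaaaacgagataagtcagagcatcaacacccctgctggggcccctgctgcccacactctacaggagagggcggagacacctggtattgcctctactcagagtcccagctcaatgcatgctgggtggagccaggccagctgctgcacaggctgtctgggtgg
Cd3d: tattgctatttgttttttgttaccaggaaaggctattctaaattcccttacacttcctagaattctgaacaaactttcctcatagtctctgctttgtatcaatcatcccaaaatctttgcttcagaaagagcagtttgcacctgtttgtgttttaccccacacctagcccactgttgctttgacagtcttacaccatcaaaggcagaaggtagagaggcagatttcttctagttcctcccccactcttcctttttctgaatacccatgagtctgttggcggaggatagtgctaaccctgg
Dgka holds the letters at 2 places in the window shown, the only one of its 4 windows that holds them. Lcp2, Ubash3a and Cd3g hold them at 1 place each, and neither Prkcq nor Cd3d holds them in this window. These windows, chosen after the values were seen, cannot show whether the letters go with the log2 fold. RefSeq windows were matched for 30 of the 38 genes, 43 windows in all, since 10 genes have more than 1 start site and some of their windows overlap. The letters occurred in 15 of the 43 windows (34.9%), against 22.8% of the 11794 windows of measured genes. They were found in 14 of the 30 genes, and in 4 of the 5 genes with a window that were at least 2-fold higher. Cd2, Cd8b1 and Malt1, also at least 2-fold higher, had no window. No share per gene was computed over all measured genes, and a gene with more windows has more places to hold the letters. These counts per gene therefore have no background to be read against. A match is a string of letters and not a measured binding site. The RUNX letters TGTGGT, searched on both strands, occurred in 11.6% of the members' windows and in 12.8% of windows of measured genes, and the E-box letters CAGCTG in 11.6% and 15.0% in the same order. The ETS letters CCGGAAGT occurred in 1 of the 43 windows, that of Bcl10, or 2.33%, against 8.51%.

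The start regions of these genes held few CpG pairs. The ratio of observed to expected CpG had a median of 0.366 over the 43 windows and 0.759 over the windows of measured genes, while the median GC content was 57.3% and 60.7% in the same order. The ratio was above 0.6 in 13 windows (30.2%), against 69.6% of the windows of measured genes. Lcp2, at 0, and Themis, at 0.0610 in 1 of its windows, had the fewest CpG pairs for their base content. Cbl, at 1.05, and Prkcq, at 0.926, were among the highest, and they had log2 folds of -0.36 and 1.63.

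The CD3 chains, which carry the phosphorylated motifs of the receptor, were all higher in the Dox library by less than 2-fold. Cd3d (Entrez 12500) stood at 907 CPM in the Dox library and 589 CPM in the untreated library, from 14858 and 10047 counts, a log2 fold of 0.62 (interval 0.59 to 0.66). Cd3g stood at 952 CPM in the Dox library and 652 CPM in the untreated library (0.55, interval 0.51 to 0.58). Cd3e stood at 258 CPM in the Dox library and 184 CPM in the untreated library (0.49, interval 0.42 to 0.56). The 3 chains kept their order of level. Per kilobase of gene length, Cd3g was 5.17 times Cd3e in the Dox library and 4.98 times in the untreated library, and Cd3d 3.79 and 3.46 times in the same order. Cd247, which encodes the zeta chain, differed more than the CD3 genes, at 779.8 CPM in the Dox library and 390.2 CPM in the untreated library (12772 and 6661 counts, log2 fold 0.999, interval 0.96 to 1.04). Its level per kilobase was 0.942 times that of Cd3e in the Dox library and 0.662 times in the untreated library. In the GENCODE M21 annotation, 56.4% of the exonic bases of Cd247 lie over exons of Pou2f1 on the opposite strand. The sources used here do not give the strand setting of the counting, so reads of both genes cannot be told apart there; Pou2f1 had 590 counts in the Dox library and 778 in the untreated library. Trat1, which encodes TRIM, a small transmembrane adaptor bound to the receptor, stood at 119 CPM in the Dox library and 89.3 CPM in the untreated library (0.41, interval 0.32 to 0.51).

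The receptor chains that bind antigen were also higher. Trac, the alpha constant region, stood at 711 CPM in the Dox library and 369 CPM in the untreated library (log2 fold 0.95). Trbc2, a beta constant region, stood at 2612 CPM in the Dox library and 1783 CPM in the untreated library (0.55), and Trbc1, which is nearly identical to it and may share its reads, at 779 and 511 CPM in the same order (0.61). Trac thus lay close to Cd247 and the beta chains close to the CD3 chains on the log2 scale. The gamma constant genes differed far more. Trgc2 had 3081 counts in the Dox library and 48 in the untreated library (6.005), Trgc4 had 2137 in the Dox library and 80 in the untreated library (4.76), and Trgc1 had 337 in the Dox library and 2 in the untreated library, with reads that these related genes may share. The delta constant gene Trdc had 0 counts in the Dox library and 1 in the untreated library. Ptcra, which encodes the surrogate alpha chain of the pre-T-cell receptor, had 1 count in the Dox library and 32 in the untreated library.

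Both coreceptors were expressed in both libraries. Cd4 stood at 658 CPM in the Dox library and 369 CPM in the untreated library (log2 fold 0.84, interval 0.79 to 0.88). Cd8a stood at 321 CPM in the Dox library and 188 CPM in the untreated library (0.78, interval 0.71 to 0.84). Cd8b1, the partner chain, stood at 629.6 CPM in the Dox library and 314.2 CPM in the untreated library, from 10311 and 5363 counts, just over 2-fold (1.003, interval 0.96 to 1.05). The interval of Cd8b1 lies above those of Cd4 and Cd8a. Per kilobase, Cd8b1 was 4.33 times Cd8a in the Dox library and 3.70 times in the untreated library, and Cd4 was 2.07 times Cd8a in the Dox library and 1.99 times in the untreated library. Cross-presenting dendritic cells of the mouse carry Cd8a without Cd8b1. Their markers Clec9a and Xcr1 had 129 and 165 counts in the Dox library against 0 and 5 in the untreated library. The part of such cells in the levels of Cd8a was not tested.

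**Figure D3:**
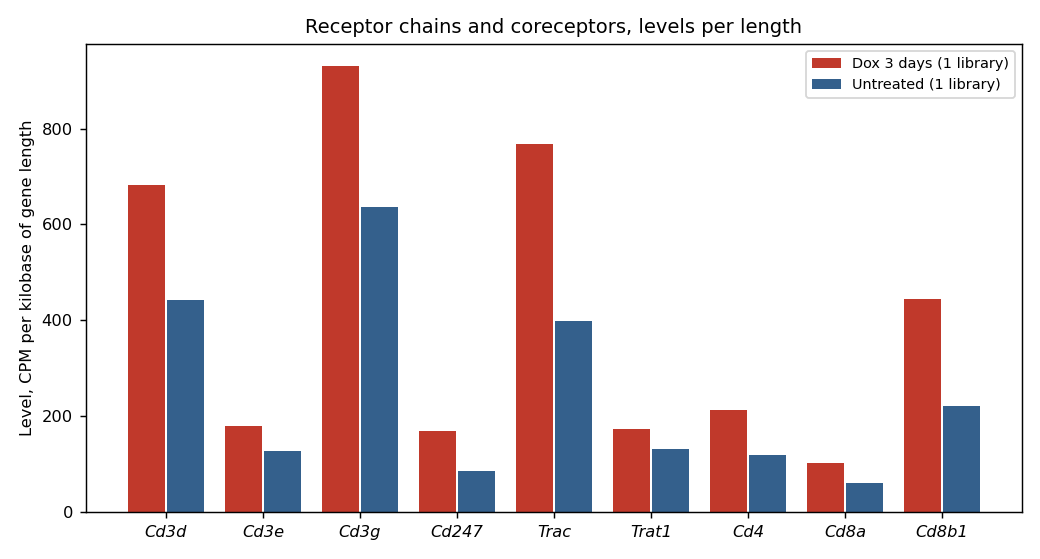
Level per kilobase of gene length (vertical axis, CPM per kilobase, from 0) of the CD3 and zeta chains, the alpha constant region, Trat1 and the coreceptors in the Dox library (left bars) and in the untreated library (right bars), 1 library each. Every left bar is the taller one, Cd3g is the tallest of the genes plotted at 930.3 and 637 CPM per kilobase, and Cd8a the shortest at 102.6 and 59.9.

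Among the surface receptors, Cd2 stood out and Thy1 went the other way. Cd2, an adhesion receptor that aids contact with antigen-presenting cells, stood at 836 CPM in the Dox library and 373 CPM in the untreated library, from 13695 and 6361 counts, a ratio of 2.24 (log2 fold 1.17, interval 1.12 to 1.21). Cd6, an adhesion receptor, had a log2 fold of 0.89 (244 CPM in the Dox library and 131 CPM in the untreated library). Its neighbour and relative Cd5, an inhibitory receptor whose surface level follows receptor signal strength in thymocytes, had 0.76 (225 CPM in the Dox library and 133 CPM in the untreated library). Thy1, a surface glycoprotein of T cells, was the most abundant member per kilobase in both libraries, at 1106 in the Dox library and 1236 in the untreated library. Its log2 fold was -0.16 (interval -0.18 to -0.14), a difference beyond counting error but of 0.895-fold in size.

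The kinases next to the receptor differed by less than 2-fold. Lck, the kinase that starts the cascade, stood at 1191 CPM in the Dox library and 1279 CPM in the untreated library (log2 fold -0.10, interval -0.13 to -0.08). Fyn, its relative, stood at 234 CPM in the Dox library and 151 CPM in the untreated library (0.63, interval 0.56 to 0.71). Lck remained the more abundant of the pair, by 8.17 times per kilobase in the Dox library and 13.6 times in the untreated library. Zap70, the kinase that binds phosphorylated CD3 and zeta tails, stood at 261 CPM in the Dox library and 192 CPM in the untreated library (0.44, interval 0.37 to 0.51). Ptprc, which encodes CD45, the phosphatase that keeps Lck ready, was at 1720.1 CPM in the Dox library and 897 CPM in the untreated library (0.94, interval 0.91 to 0.97). CD45 is carried by nearly all white blood cells, and the macrophage and B cell lists given above were higher in the same library.

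The genes of the LAT complex were all higher, with log2 folds from 0.34 to 1.23. Lcp2 (chromosome 11, 34046928 to 34092281), which encodes SLP-76, stood at 542 CPM in the Dox library and 231 CPM in the untreated library, from 8870 and 3943 counts, a ratio of 2.34 (1.23, interval 1.18 to 1.28). Lat itself, the membrane scaffold, stood at 814 CPM in the Dox library and 633 CPM in the untreated library (0.36, interval 0.33 to 0.40). The 2 adaptors that work together thus differed unequally: per kilobase Lat was 4.07 times Lcp2 in the Dox library and 7.43 times in the untreated library. Grap2, which encodes Gads, the link between LAT and SLP-76, was at 409 CPM in the Dox library and 207 CPM in the untreated library (0.98, interval 0.92 to 1.04). Themis, which encodes a protein needed for thymocyte selection, was at 563 CPM in the Dox library and 289 CPM in the untreated library (0.96, interval 0.91 to 1.01). Plcg1, the phospholipase, had 0.82 (143 CPM in the Dox library and 81.0 CPM in the untreated library). Vav1, a guanine nucleotide exchange factor for Rac, had the lowest log2 fold of this group, 0.34 (257 CPM in the Dox library and 203 CPM in the untreated library). Macrophages and dendritic cells also express Lcp2 and Vav1.

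**Figure D4:**
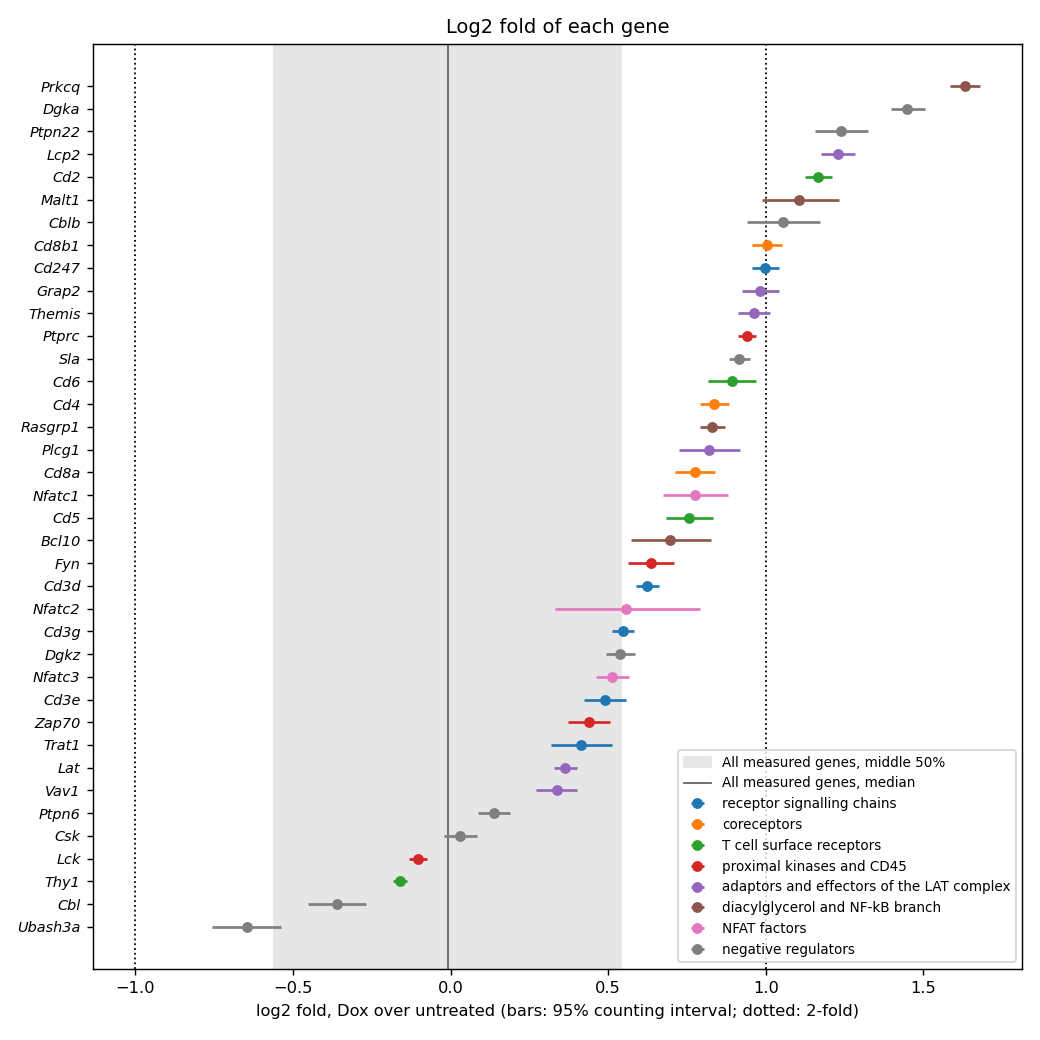
Log2 fold of Dox over untreated (horizontal axis) for each of the 38 genes in rank order, coloured by role, with 95% counting intervals and dotted lines at 2-fold. The grey band is the middle 50% of all measured genes, -0.56 to 0.54, and 25 of the 38 genes lie to its right. Prkcq is at the top (1.63) and Ubash3a at the bottom (-0.65).

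The diacylglycerol branch held the member with the highest log2 fold. Prkcq (chromosome 2, 11171905 to 11301226), which encodes protein kinase C theta, the main isoform of T cells at the contact with antigen-presenting cells, stood at 826 CPM in the Dox library and 267 CPM in the untreated library, from 13527 and 4551 counts. This is a ratio of 3.10 (interval 3.00 to 3.20), a log2 fold of 1.63. In order of level per kilobase among the 38 genes, Prkcq was number 10 in the Dox library and number 19 in the untreated library. Malt1, the protease of the complex that passes the signal to NF-kB, stood at 103 CPM in the Dox library and 47.9 CPM in the untreated library, 1690 against 817 counts (1.11, interval 0.99 to 1.23). Bcl10, its partner, stood at 80.5 CPM in the Dox library and 49.6 CPM in the untreated library (0.70, interval 0.57 to 0.83). Rasgrp1, the exchange factor that activates Ras when diacylglycerol is present, stood at 813 CPM in the Dox library and 457 CPM in the untreated library (0.83, interval 0.79 to 0.87). All 4 genes of this branch were thus higher, against 49.3% of all measured genes, and 2 of them by at least 2-fold, against 13.6%.

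The NFAT factors, which calcineurin releases to the nucleus, were higher by less than 2-fold. Nfatc3 was the most abundant, at 415 CPM in the Dox library and 291 CPM in the untreated library (log2 fold 0.51, interval 0.46 to 0.57). Nfatc1 stood at 123 CPM in the Dox library and 71.6 CPM in the untreated library (0.78, interval 0.67 to 0.88). Nfatc2, the least abundant of all 38 genes, had 379 counts in the Dox library and 268 in the untreated library (0.56, interval 0.33 to 0.79). The interval of Nfatc2 overlaps those of both other factors. Per kilobase, Nfatc3 was 24.9 times Nfatc2 in the Dox library and 25.7 times in the untreated library.

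The inhibitors differed among themselves, with log2 folds from -0.65 to 1.45. Of 9 genes, 3 passed 2-fold higher, against 13.6% of all measured genes, and 0 passed 2-fold lower, against 13.0%. Dgka (chromosome 10, 128720131 to 128745084), a diacylglycerol kinase that removes the lipid signal, stood at 608 CPM in the Dox library and 223 CPM in the untreated library, from 9956 and 3799 counts, a ratio of 2.73 (1.45, interval 1.40 to 1.504). Dgkz, the second such kinase, stood at 559.97 CPM in the Dox library and 386 CPM in the untreated library (0.54, interval 0.49 to 0.58). The order of the 2 kinases per kilobase was reversed, with Dgka at 1.69 times Dgkz in the Dox library and 0.897 times in the untreated library. Ptpn22 (chromosome 3, 103856575 to 103912252), a phosphatase that acts on Lck and Zap70 and works with the kinase Csk, stood at 229 CPM in the Dox library and 97.0 CPM in the untreated library, from 3750 and 1656 counts (1.24, interval 1.16 to 1.32). Csk itself, which phosphorylates the inhibitory tyrosine of Lck, stood at 366 CPM in the Dox library and 358 CPM in the untreated library, and its interval of -0.02 to 0.08 includes no difference. Ptpn6, which encodes the phosphatase SHP-1, had 0.14 (384 CPM in the Dox library and 349 CPM in the untreated library). Macrophages and B cells also express Ptpn6.

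The ubiquitin ligases and their binding partners went opposite ways. Cblb, a ligase that restrains T cell activation, stood at 110.5 CPM in the Dox library and 53.1 CPM in the untreated library, 1810 against 907 counts (log2 fold 1.05, interval 0.94 to 1.17). Its relative Cbl stood at 101.1 CPM in the Dox library and 129.8 CPM in the untreated library (-0.36, interval -0.45 to -0.27). Per kilobase, Cbl was 1.14 times Cblb in the Dox library and 3.04 times in the untreated library. Ubash3a, which encodes STS-2, a Cbl-binding suppressor of receptor signalling, had 1093 counts in the Dox library and 1784 in the untreated library, a ratio of 0.639 (-0.65, interval -0.76 to -0.54), the lowest of the 38. Its paralog Ubash3b, which encodes STS-1 and is not among the 38, had 987 counts in the Dox library and 350 in the untreated library (1.55), so that Ubash3a was 1.22 times Ubash3b per kilobase in the Dox library and 5.60 times in the untreated library. Sla, which encodes SLAP, an adaptor that works with Cbl to take receptor chains off the surface of thymocytes, stood at 1192 CPM in the Dox library and 632 CPM in the untreated library (0.92, interval 0.88 to 0.95).

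Other genes of the pathway, in lists that do not overlap the 38, were described in the same way. Of 46 further genes near the receptor, 44 were measured, 11 were 2-fold higher or more (background 13.6%) and 0 were 2-fold lower (background 13.0%), with a median log2 fold of 0.65. Those with the largest log2 folds were Tagap, a GTPase-activating protein of activated T cells (2.57), the tetraspanin gene Cd53 (2.01), Ubash3b, and Txk (1.42), a kinase of the Tec family, which activates phospholipase C gamma. Lime1, a transmembrane adaptor, had 1.24. Txk stood at 184 CPM in the Dox library and 68.8 CPM in the untreated library, while Tec itself had 0.81. The most abundant gene of this list, Sh3kbp1, which encodes a Cbl-binding adaptor, stood at 1255 CPM in the Dox library and 672 CPM in the untreated library (0.90).

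The branches farther from the receptor lay closer to all measured genes, of which 13.6% passed 2-fold higher and 13.0% passed 2-fold lower. The counts in the calcium and the Ras branch lie below these shares. Of 27 measured calcium and calcineurin genes, 0 were 2-fold lower and 3 were 2-fold higher or more (median 0.26): the calcium channel gene Orai2 (1.73), its activator Stim1 (1.16) and Tbc1d10c, which encodes the calcineurin inhibitor carabin (1.10). Orai2 stood at 191 CPM in the Dox library and 57.7 CPM in the untreated library. Of 27 Ras, PKC and NF-kB genes, 0 were 2-fold lower and 2 were 2-fold higher or more (median 0.25), among them Rasgrp2, an exchange factor for Rap1 (1.802). Rasgrp1 was 0.800 times Rasgrp2 per kilobase in the Dox library and 1.57 times in the untreated library. Of 7 measured receptor constant and pre-T-cell receptor genes, 3 were at least 2-fold higher, all gamma genes, and 1, Ptcra, at least 2-fold lower (median 0.95). Trgc1 reached 1 CPM only in the Dox library and Ptcra only in the untreated library.

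Genes that receptor stimulation induces in normal T cells were mixed. Of 19 that were measured, 8 were 2-fold higher or more (background 13.6%) and 2 were 2-fold lower or more (background 13.0%), with a median log2 fold of 0.75. Cd40lg, Nr4a3 and Tnfrsf9 reached 1 CPM only in the Dox library and Spry1 only in the untreated library. Their calls thus follow in part from the filter of 1 CPM in either library. Among genes with at least 5 CPM, 5 of the list were 2-fold higher (background 10.7%) and 1 was 2-fold lower (background 11.6%). Cd40lg, the ligand of CD40, had 51 counts in the Dox library and 0 in the untreated library, or at least 17.7-fold higher when a floor of 3 counts stands for the library at 0. Nr4a3 had 67 counts in the Dox library and 4 in the untreated library, Cd69, an early activation marker, 432 in the Dox library and 157 in the untreated library, and Tnfrsf9 20 in the Dox library and 6 in the untreated library. The abundant Nr4a1 had a log2 fold of 1.03 (115 CPM in the Dox library and 56.2 CPM in the untreated library), and Egr1, another early gene, 0.08. The 2 that were at least 2-fold lower were Irf4, at 19.7 CPM in the Dox library and 49.9 CPM in the untreated library, and Spry1, which encodes an inhibitor of Ras signalling, with 8 counts in the Dox library and 85 in the untreated library. The cytokine genes Il2, Xcl1 and Ccl3 had 0 counts in both libraries. Macrophage and dendritic cell markers were higher in the same library, as given above. Foxp3, a marker of regulatory T cells, had 37 counts in the Dox library and 5 in the untreated library, and Klrg1 had 0 in both.

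**Figure D5:**
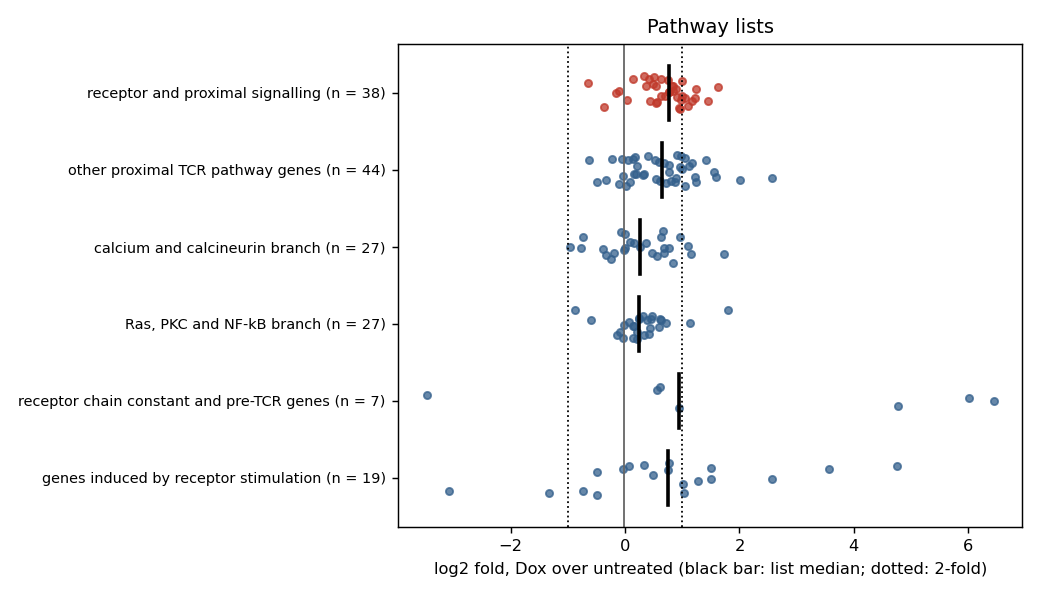
Log2 fold of Dox over untreated (horizontal axis) of each measured gene in the 38-gene set and in 5 further pathway lists (rows), 1 library per condition, with list medians as black bars and dotted lines at 2-fold; the grey line is the median of all measured genes. Medians run from 0.25 for the Ras, PKC and NF-kB list to 0.95 for the receptor constant genes, where 4 of the 7 points lie beyond 2-fold.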

How the data were processed

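RNA of FACS-sorted ALL211 cells was sequenced, 1 library per condition. The deposited tables list raw read counts for each Entrez gene, with gene lengths as annotation. Per the submitters' processing notes, CASAVA 1.8.2, featureCounts and the mm10 build were used; annotation, aligner and strand setting: not given in the sources used here. Series and sample tables held the same counts (0 of 27179 genes differed). Names came from RefSeq GRCm38, which matched 25275 genes; genes without a name held 0.977% of counts in the Dox library and 1.20% in the untreated library and stayed in the totals.

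Counts were scaled with TMM factors (0.994 for Dox, 1.01 for untreated) in edgeR 4.0.16 under R 4.3.3, over all genes. A log2 fold is a difference in log2 CPM computed with a prior count of 2; ratios, CPM and intervals carry none. A gene counted as measured from 1 CPM in either library. Levels between genes were compared per kilobase of deposited gene length. No p-value was computed, since each condition had 1 library; intervals cover counting error only, and 3 counts correspond to 0.183 CPM (Dox) and 0.176 CPM (untreated). Lowess (fraction 0.3) in statsmodels 0.14.6 removed the length trend in 1 alternative. DESeq2 1.42.0 gave alternative size factors. Further alternatives were prior counts of 0.5 and 5, upper quartile and total-count scaling, filters of 1 count and 5 CPM, totals without markers of other cells, and a 4-fold threshold. Python 3.11.15, scipy 1.17.1, pandas 2.3.3 and matplotlib 3.10.9 were used, and the calculation was tested on simulated counts. All 38 members were described; of other pathway lists, up to 6 genes beyond 2-fold with the largest folds and the most abundant gene were named, with a few relatives of members chosen after their values were seen. Some genes that this rule names are left out here. The members and lists were chosen with earlier results of these data known.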

Additional observations from a re-analysis of the deposited data

How the results depend on the processing

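Recomputed under 9 alternatives, 320 of 342 member log2 folds stayed within their counting intervals, and 0 members changed sign. The filters of 1 count and 5 CPM could not change a member's log2 fold, so their values count as within by construction. The 22 values outside came from removing the gene length trend, except that Thy1 also lay outside with DESeq2 and upper quartile scaling. The members' median ranged from 0.74 (DESeq2 size factors) to 0.79 (upper quartile scaling). The number at least 2-fold higher was 7 with total-count or DESeq2 scaling, where Cd8b1 left, 9 without markers of other cells in the totals and 10 with upper quartile scaling, where Cd247 and then Grap2 entered. It was 6 after the gene length trend was removed, with Malt1 at 0.99 and Cblb at 0.91. At 4-fold, 0 members remained, also by the interval; 2 of the other genes near the receptor, 0 calcium, 0 Ras and PKC, and, among stimulation-induced genes, 3 higher and 1 lower passed 4-fold. With at least 5 CPM, stimulation-induced genes gave 5 higher and 1 lower, and the receptor constant list 0 lower; fewer genes are tested there. With the length trend removed, 1 calcium gene was 2-fold lower, and the cause was not tested. No alternative moved the median of all genes by 0.1. No paired analysis was possible because each condition had 1 library, and no replicate could be left out. Depth limited the genes with few counts, such as Trgc1, Ptcra and Tnfrsf9, far more than the members.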

Other observations

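Several of the 38 genes are neighbours on 1 chromosome. Thy1, Cbl, Cd3g, Cd3d and Cd3e lie within 966 kb of chromosome 9 (GRCm38, 44043384 to 45009663). In that order their log2 folds were -0.16, -0.36, 0.55, 0.62 and 0.49, so the first pair, 94.4 kb apart, was lower in the Dox library and the other 3 genes, which start 735 kb farther on, were higher. Cd3g and Cd3d, 1.34 kb apart, had intervals that nearly touch, 0.51 to 0.58 and 0.59 to 0.66. Cd8b1 and Cd8a lie 35.9 kb apart on chromosome 6 and had 1.003 and 0.78, and Cd5 and Cd6, 50.3 kb apart on chromosome 19, had 0.76 and 0.89. Ptpn6 and Cd4, 126 kb apart on chromosome 6, differed more, with 0.14 and 0.84.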
